A study of Homo sapiens with 6 samples.

Results

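The genes described here encode the proteasome, the large protease that degrades ubiquitin-tagged proteins, and the question was how its constitutive and its interferon-inducible subunits compared after HNRNPD was lowered. They were taken by name, as every row of the deposited table named PSM, then a letter from A to G, then a number, plus POMP, which gave 49 genes of 56303. Of these, 5 are the interferon-inducible genes PSMB8, PSMB9, PSMB10, PSME1 and PSME2. RNA sequencing was done on A549, an established human lung adenocarcinoma line, transfected with an siRNA against HNRNPD (3 libraries) or with a negative-control siRNA (3 libraries, called control below). The HNRNPD product, AUF1, binds AU-rich stretches of mRNAs. The labels give no siRNA sequence, and nothing in them says that libraries of a group were separate cultures, so p-values measure only how far these libraries spread, and that spread may be technical. In bulk RNA, a higher level in every cell and a larger share of cells with the transcript cannot be told apart.

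The core particle of the proteasome, the 20S, is a barrel of stacked rings built from alpha and beta subunits, and its beta subunits PSMB5, PSMB6 and PSMB7 carry the proteolytic sites. The 19S regulatory particle caps the barrel, binds ubiquitin chains and unfolds the substrate with a ring of ATPases. Under interferon, newly assembled particles take PSMB8, PSMB9 and PSMB10 in place of PSMB5, PSMB6 and PSMB7, and this immunoproteasome, often capped by the 11S activator of PSME1 and PSME2, is known for making peptides for MHC class I.

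The inducible genes are known to be switched on through interferon-response elements in their promoters, so their promoter windows are shown first. RefSeq windows (GRCh38.p14, 250 bases before to 50 after each annotated start) were found for 43 of the 49 genes, all 5 interferon-inducible ones included. The sequences run 5′ to 3′ on the gene's own strand, and capitals mark the core of the interferon-stimulated response element, GAAA and GAAA with 2 bases of any kind between them, searched on both strands. A match on the opposite strand appears as TTTC and TTTC. The PSMB8 window is chr6:32843998-32844297 (minus strand), that of PSMB10 is chr16:67936801-67937100 (minus), that of PSME1 is chr14:24135944-24136243 (plus) and that of PSME2 is chr14:24146561-24146860 (minus). The PSMB9 window, chr6:32853942-32854241 (plus), overlaps by 13 bases the window of TAP1 on the other strand, chr6:32853655-32853954 (minus), and the TAP1 window is shown for that reason.
PSMB8: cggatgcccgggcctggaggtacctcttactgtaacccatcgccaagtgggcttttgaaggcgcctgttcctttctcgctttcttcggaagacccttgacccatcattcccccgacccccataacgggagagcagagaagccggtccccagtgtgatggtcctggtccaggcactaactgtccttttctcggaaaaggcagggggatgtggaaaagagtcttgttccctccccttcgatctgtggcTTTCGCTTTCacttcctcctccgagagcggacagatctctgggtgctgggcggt
PSMB10: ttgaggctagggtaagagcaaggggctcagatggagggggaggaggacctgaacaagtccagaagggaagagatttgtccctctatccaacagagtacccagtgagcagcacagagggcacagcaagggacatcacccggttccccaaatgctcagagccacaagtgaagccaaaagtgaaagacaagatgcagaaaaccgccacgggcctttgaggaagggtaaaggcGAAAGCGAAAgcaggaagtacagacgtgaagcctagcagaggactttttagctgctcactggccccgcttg
PSME1: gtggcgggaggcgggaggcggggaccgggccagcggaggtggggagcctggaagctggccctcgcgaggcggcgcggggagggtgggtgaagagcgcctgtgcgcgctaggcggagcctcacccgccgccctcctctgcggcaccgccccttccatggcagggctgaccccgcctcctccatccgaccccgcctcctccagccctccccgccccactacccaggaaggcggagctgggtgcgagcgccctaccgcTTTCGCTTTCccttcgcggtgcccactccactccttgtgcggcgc
PSME2: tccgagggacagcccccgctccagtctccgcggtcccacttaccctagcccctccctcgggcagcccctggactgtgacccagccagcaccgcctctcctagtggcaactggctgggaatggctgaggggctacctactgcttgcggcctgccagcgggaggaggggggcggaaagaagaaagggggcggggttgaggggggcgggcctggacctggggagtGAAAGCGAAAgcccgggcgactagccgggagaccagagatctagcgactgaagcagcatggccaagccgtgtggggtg
PSMB9: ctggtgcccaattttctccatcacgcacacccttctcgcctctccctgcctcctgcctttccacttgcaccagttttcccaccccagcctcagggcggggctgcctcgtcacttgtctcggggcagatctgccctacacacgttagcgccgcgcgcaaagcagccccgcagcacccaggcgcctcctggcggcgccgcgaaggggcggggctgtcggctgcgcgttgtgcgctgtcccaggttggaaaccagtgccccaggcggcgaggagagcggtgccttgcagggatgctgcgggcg
TAP1: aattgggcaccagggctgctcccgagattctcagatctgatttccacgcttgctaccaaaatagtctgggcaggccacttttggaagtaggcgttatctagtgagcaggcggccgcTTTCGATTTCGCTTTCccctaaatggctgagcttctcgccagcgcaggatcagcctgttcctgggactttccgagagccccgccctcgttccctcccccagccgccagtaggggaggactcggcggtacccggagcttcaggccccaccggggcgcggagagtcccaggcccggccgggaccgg

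The core of the interferon-stimulated response element was present in the windows of 4 of the 5 interferon-inducible genes, PSMB8, PSMB10, PSME1 and PSME2, and in those of 3 of the 38 other proteasome genes with a window, PSMA4, PSMB4 and PSMG4. Among all genes with a RefSeq window, 4.38% held it (3.57% of windows). In PSMB8, PSMB10, PSME1 and PSME2 the matched letters were the same 10, GAAAGCGAAA, which 34 of 27305 genes (0.125%) held, PSMG4 among them. These exact letters were chosen after the matches were seen. Counted from the annotated start, the match ran from -4 to 6 in PSMB8 (in 1 of its 2 windows), from -21 to -12 in PSMB10, from 6 to 15 in PSME1 and from -28 to -19 in PSME2. PSMB9 had no match in its own window, which was set by its RefSeq start, base 32854192. The deposited PSMB9 row begins at base 32844136, and no PSMB9 window was searched at that start. That base lies inside the PSMB8 window, 32843998 to 32844297, which holds the PSMB8 match. The TAP1 window held 2 overlapping matches, and their nearer end lay 354 bases before the RefSeq start of PSMB9. The gamma-activated site TTCNNNGAA (both strands), present in 9.38% of genes (7.66% of windows), was in the PSMB8 window of the 5 and in 7 of the 38 others. The antioxidant response element core TGACNNNGC (both strands), which NFE2L1 also binds and which 16.1% of genes (13.3% of windows) held, was in 3 of the 5 windows, PSMB9, PSME1 and PSME2, and in 12 of the 38 others. In these 5 genes no match of a motif overlapped a match of another motif. A match describes the letters of the window, and whether a factor binds there was not tested.

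The libraries held 37151094 to 40462117 counts after HNRNPD siRNA and 42607632 to 43005090 in the control. Every HNRNPD siRNA library thus had fewer counts than every control library. The mitochondrial share of counts was 15.1% to 18.05% after HNRNPD siRNA and 15.72% to 18.5% in the control, and these 2 ranges of shares overlap. HNRNPD mRNA stood at 177, 163 and 167 counts per 1000000 counts (CPM) in the HNRNPD siRNA libraries, against 965, 943 and 942 CPM in the control, and it fell by 2.49 on the log2 scale (SE 0.06, edgeR adjusted p = 1.38e-15), which matches all 6 labels. Of the epithelial markers, the keratins fell: KRT8 averaged 2055 CPM after HNRNPD siRNA and 3327 CPM in the control, KRT18 588 and 993 CPM, and KRT19 3.84 and 7.54 CPM. EPCAM rose (20.9 CPM after HNRNPD siRNA and 16.6 CPM in the control), and CDH1 was not called (87.4 and 95.8 CPM), though it was called lower without HNRNPD siRNA replicate 1 (edgeR adjusted p = 0.00858). The blood, endothelial and fibroblast markers PTPRC, CD3E, PECAM1, VWF, DCN and LUM averaged at most 0.278 CPM in either group, while ITGAM, a myeloid integrin, averaged 2.03 CPM after HNRNPD siRNA and 4.52 CPM in the control. Every value below is a CPM unless another unit is named, and calls of higher or lower rest on an adjusted p under 0.05 over 20465 tested genes.

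All 5 interferon-inducible genes rose after HNRNPD siRNA, where 28.4% of all tested genes were called higher and 27.8% lower. PSMB8 and PSMB9, which encode the inducible catalytic subunits of the 20S, rose most, by 6.43-fold and 5.25-fold. PSMB10 rose 1.51-fold, and the activator genes PSME1 and PSME2 rose 1.99-fold and 2.1-fold. The median log2 fold change of the 5 was 1.07, against 0.01 over all tested genes, and the middle 90% of tested genes lay between -1.11 and 1.5.

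PSMB8 replaces PSMB5, the subunit with chymotrypsin-like activity, and occupies chromosome 6, bases 32840717 to 32844703 (GRCh38, minus strand). It had 36.3, 30.7 and 51.4 CPM in HNRNPD siRNA replicates 1 to 3, against 5.7, 5.49 and 7.22 CPM in control replicates 1 to 3. The groups lay far apart, and replicate 3 was the highest of the HNRNPD siRNA libraries. The means were 39.5 ± 10.7 CPM after HNRNPD siRNA and 6.14 ± 0.947 CPM in the control (SD, n = 3 each), and the log2 fold change was 2.68 (SE 0.25, edgeR adjusted p = 3.17e-04). A fraction of 0.212 of its exonic bases is shared with the antisense gene PSMB8-AS1, which had 13, 10.5 and 16.1 CPM after HNRNPD siRNA, against 1.17, 1.05 and 0.572 CPM in the control (edgeR adjusted p = 1.79e-08). How reads over the shared bases were assigned was not tested.

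PSMB9 replaces PSMB6, the subunit with caspase-like activity, and its deposited span is chromosome 6, bases 32844136 to 32859585 (plus strand). It had 22.7, 18.2 and 30.6 CPM in the HNRNPD siRNA libraries, against 4.93, 4.08 and 4.62 CPM in the control. The order of the HNRNPD siRNA libraries was the same as for PSMB8, and no control library came near them. The means were 23.9 ± 6.29 CPM after HNRNPD siRNA and 4.55 ± 0.428 CPM in the control (SD, n = 3 each), and the log2 fold change was 2.39 (SE 0.20, edgeR adjusted p = 1.53e-05). A fraction of 0.057 of its exonic bases is shared with PSMB8-AS1, which rose and lies on the same strand as PSMB9. The part of PSMB8-AS1 in the PSMB9 counts was not tested.

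PSMB10 replaces PSMB7, the subunit with trypsin-like activity, and occupies chromosome 16, bases 67934502 to 67937087 (minus strand). It had 5.5, 5.77 and 9.12 CPM after HNRNPD siRNA, against 4.51, 5.18 and 3.84 CPM in the control. The groups did not overlap, but HNRNPD siRNA replicates 1 and 2 were close to control replicate 2, and replicate 3 stood above the rest. The log2 fold change was 0.59 (SE 0.19, edgeR adjusted p = 0.015). It was no longer called without HNRNPD siRNA replicate 3 (0.31, adjusted p = 0.0679), without control replicate 1 (0.58, adjusted p = 0.0603) or without control replicate 3 (0.48, adjusted p = 0.0745). A fraction of 0.348 of its exonic bases is shared with CTC-479C5.12, which was not called (means of 8.01 CPM after HNRNPD siRNA and 6.38 CPM in the control, edgeR adjusted p = 0.0819). It was called higher without HNRNPD siRNA replicate 1 (0.0341), without HNRNPD siRNA replicate 2 (0.0382) and with no filter on low counts (0.0395). Its part in the PSMB10 counts was not tested.

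PSME1 and PSME2 encode the alpha and beta chains of the 11S activator, also named PA28, which opens the gate of the barrel, and lie near each other on chromosome 14. PSME1 (24136158 to 24138967, plus strand) had 408, 353 and 468 CPM after HNRNPD siRNA, against 222, 194 and 201 CPM in the control. PSME2 (24143362 to 24147570, minus strand) had 171, 154 and 201 CPM after HNRNPD siRNA, against 84.1, 87 and 79.9 CPM in the control. Neither gene's groups overlapped, and in both genes HNRNPD siRNA replicate 3 was the highest and replicate 2 the lowest of its group. The log2 fold change was 1.00 for PSME1 (SE 0.09, edgeR adjusted p = 1.29e-06) and 1.07 for PSME2 (SE 0.08, edgeR adjusted p = 1.59e-08). Per kilobase of exon, PSME1 was the most abundant of the 5, at a mean of 230.1 CPM per kilobase after HNRNPD siRNA and 115 in the control. PSME2 followed with 48.9 and 23.4, PSMB8 with 19.7 and 3.06, PSMB9 with 7.77 and 1.48, and PSMB10 with 3.67 and 2.43 CPM per kilobase.

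HNRNPD siRNA replicate 3 was the highest of its group in all 5 interferon-inducible genes and in 7 of the 42 other tested proteasome genes. Without it the log2 fold changes were 2.44 for PSMB8, 2.16 for PSMB9, 0.88 for PSME1 and 0.95 for PSME2, and these 4 stayed called. The same library was also the highest of its group in 17 of 17 genes of the interferon-inducible class I list described below. That list includes UBD, which fell, so in UBD this library was the nearest to the control. How many of all tested genes had this library highest was not counted.

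**Figure D1:**
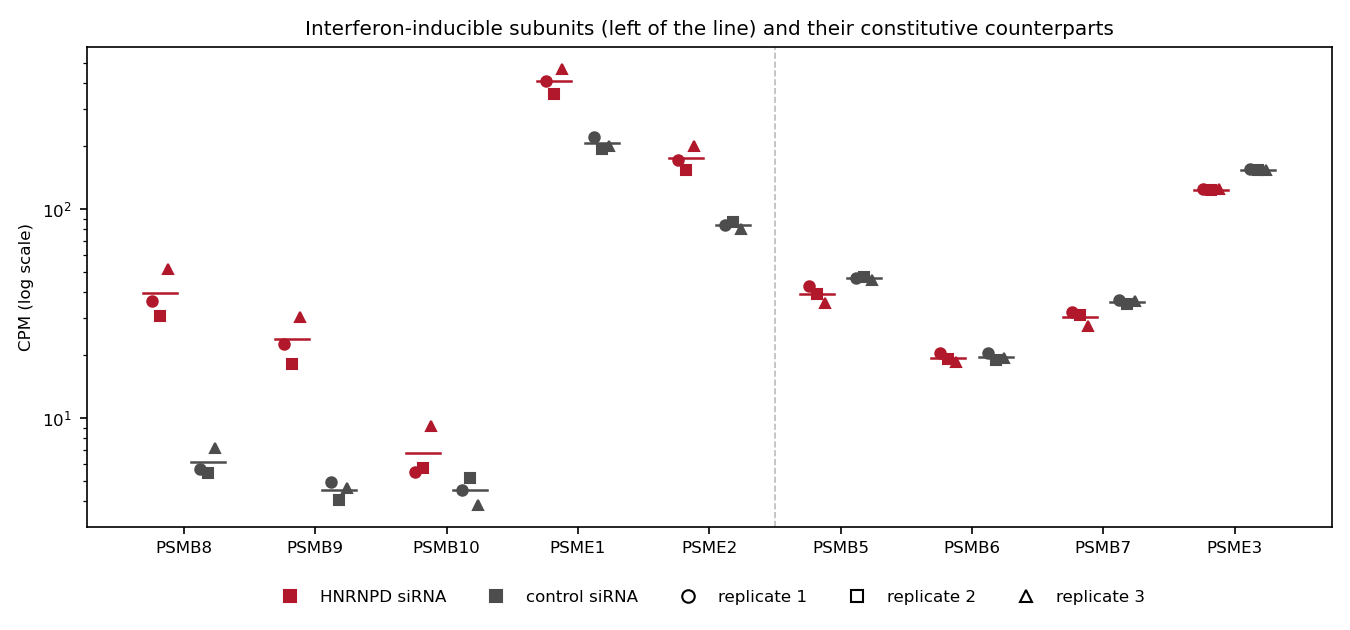
Level in CPM (log axis) of the 5 interferon-inducible subunits, left of the dashed line, and of PSMB5, PSMB6, PSMB7 and PSME3, right of it; each point is a library, red for HNRNPD siRNA and grey for control siRNA, shaped by replicate, with a bar at the mean. PSMB8 sits at 30.7 to 51.4 CPM after HNRNPD siRNA and at 5.49 to 7.22 CPM in the control, while PSMB6 sits at 18.5 to 20.4 and 19 to 20.4 CPM.

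None of the subunits that the inducible ones replace was called higher. PSMB5 had 42.8, 39 and 35.4 CPM after HNRNPD siRNA, against 47, 47.3 and 45.9 CPM in the control, and it fell by 0.26 on the log2 scale (SE 0.07, edgeR adjusted p = 0.00486). PSMB7 had 32.2, 31.1 and 27.6 CPM after HNRNPD siRNA, against 36.9, 35 and 36.3 CPM in the control, and it fell by 0.25 on the log2 scale (SE 0.07, edgeR adjusted p = 0.0064). In both genes the groups did not overlap, and HNRNPD siRNA replicate 3 was the lowest library. PSMB6 had 20.4, 19.2 and 18.5 CPM after HNRNPD siRNA, against 20.4, 19 and 19.3 CPM in the control, and was not called (log2 fold change -0.01, SE 0.08, edgeR adjusted p = 0.897). PSME3, which encodes a related 11S activator found mainly in the nucleus, had 124, 123 and 124 CPM after HNRNPD siRNA, against 155, 153 and 154 CPM in the control. Its groups were tight and apart, and it fell by 0.32 on the log2 scale (SE 0.05, edgeR adjusted p = 6.94e-05).

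The balance within each pair was measured inside each library as the inducible gene's share of the pair's counts per base of exon, which does not depend on how libraries are scaled. PSMB8 made up 42.7%, 40.9% and 56.1% of the PSMB8 and PSMB5 pair after HNRNPD siRNA, against 9.66%, 9.26% and 12.2% in the control. PSMB9 made up 34.4%, 30.9% and 43.9% of its pair with PSMB6 after HNRNPD siRNA, against 10.2%, 9.22% and 10.1% in the control. Thus 1 of the 6 libraries, HNRNPD siRNA replicate 3, had more PSMB8 than PSMB5 per base, and none had more PSMB9 than PSMB6 per base. The second statement rests on the deposited lengths of 3072 bases for PSMB9 and 1448 for PSMB6, since by counts alone PSMB9 was above PSMB6 in HNRNPD siRNA replicates 1 (827 and 743 counts) and 3 (1227 and 739 counts). PSMB10 made up 14.1%, 15.2% and 24.2% of its pair with PSMB7 after HNRNPD siRNA, against 10.5%, 12.5% and 9.26% in the control. The shares of the 3 inducible catalytic subunits thus ran from 14.1% to 56.1% over the HNRNPD siRNA libraries and from 9.22% to 12.5% over the control libraries. PSME1 and PSME2 are not replaced by PSME3 but form another activator. PSME1 made up 90.5%, 89.3% and 91.6% of its pair with PSME3 after HNRNPD siRNA, against 80.6%, 78.6% and 79% in the control. PSME2 made up 66.6%, 64.4% and 70% of its pair with PSME3 after HNRNPD siRNA, against 43.9%, 45% and 42.7% in the control.

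No pair's groups overlapped. The log2 ratio was higher after HNRNPD siRNA by 2.92 for PSMB8 over PSMB5 (7.59-fold), by 2.38 for PSMB9 over PSMB6 (5.2-fold), by 0.82 for PSMB10 over PSMB7 (1.76-fold), by 1.31 for PSME1 over PSME3 (2.48-fold) and by 1.38 for PSME2 over PSME3 (2.6-fold). Each of the 5 comparisons gave a two-sided exact permutation p of 0.1 (adjusted 0.1 over the 5), the smallest that 3 libraries against 3 can give, so no pair could pass the threshold. Without HNRNPD siRNA replicate 3, the difference for PSMB10 over PSMB7 was 0.52.

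**Figure D2:**
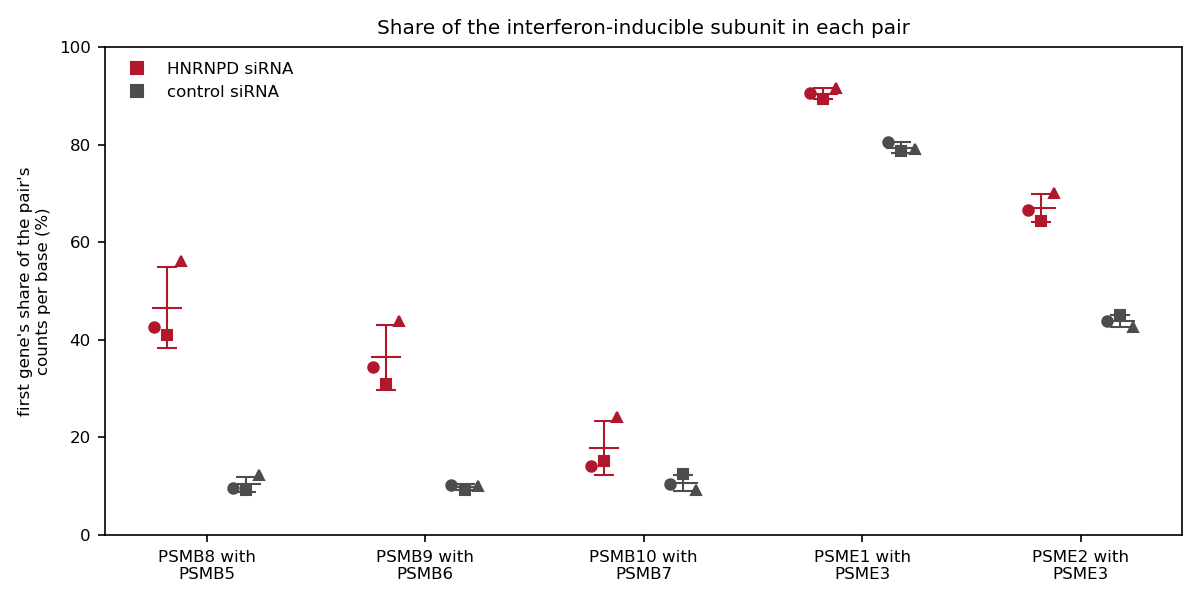
Share (%) of the first gene in the pair's counts per base, for 5 pairs; points are libraries (red HNRNPD siRNA, grey control siRNA), with the mean and SD over 3 libraries. PSMB8 averages 46.6% after HNRNPD siRNA and 10.4% in the control, and PSMB10 17.8% and 10.8%.

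The genes next to the inducible subunits were looked at because these subunits lie in tight clusters. On chromosome 6, PSMB8 lies between TAP2 and TAP1, and the deposited span of PSMB9 holds all of TAP1 and overlaps the end of PSMB8. The RefSeq start used for the PSMB9 window, base 32854192, lies beyond TAP1. TAP1 and TAP2 encode the transporter that carries peptides into the endoplasmic reticulum. TAP1 had 85.3, 72.9 and 113 CPM after HNRNPD siRNA, against 13.1, 10.8 and 12 CPM in the control (log2 fold change 2.91, SE 0.19, edgeR adjusted p = 4.61e-05). TAP2 averaged 234 CPM after HNRNPD siRNA and 48.5 CPM in the control (log2 fold change 2.27, SE 0.18, edgeR adjusted p = 1.64e-04). Both rose, as PSMB8 and PSMB9 did. HLA-DMB, the next protein-coding gene beyond PSMB9, averaged 12.8 CPM after HNRNPD siRNA and 10.5 CPM in the control and was not called (log2 fold change 0.27, edgeR adjusted p = 0.0747). It was called higher without HNRNPD siRNA replicate 3 (0.42, edgeR adjusted p = 2.82e-04), with library totals only (0.0482) and with no filter on low counts (0.0446). On chromosome 14, EMC9, a subunit of a membrane protein insertase, lies between PSME1 and PSME2, and RNF31, the catalytic subunit of the linear ubiquitin ligase LUBAC, starts head to head with PSME2. EMC9 had 19.1, 17 and 16.4 CPM after HNRNPD siRNA, against 9.46, 9.1 and 8.84 CPM in the control (log2 fold change 0.94, SE 0.09, edgeR adjusted p = 7.67e-08). RNF31 had 54.3, 48.5 and 53.4 CPM after HNRNPD siRNA, against 23.8, 24.3 and 24.1 CPM in the control (log2 fold change 1.11, SE 0.07, edgeR adjusted p = 1.48e-10). EMC9 shares exonic bases with PSME1, and RNF31 with PSME2, so counts near those ends may hold reads of either gene. Beside PSMB10 on chromosome 16, CTRL averaged 2.74 CPM after HNRNPD siRNA and 1.92 CPM in the control (edgeR adjusted p = 0.0439, and 0.365 without HNRNPD siRNA replicate 3, 0.13 without control replicate 1, 0.068 without control replicate 2 and 0.11 without control replicate 3), and LCAT was not called (2.95 and 2.29 CPM, edgeR adjusted p = 0.101, and 0.0461 without HNRNPD siRNA replicate 2).

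The other structural groups moved little and in both directions. Of the 42 tested proteasome genes outside the inducible 5, 9 were called higher, 19 lower and 14 not called (median log2 fold change -0.12), and 40 of the 42 lay within 1.5-fold of the control. The exceptions were PSMC3 and PSMD9. Over all 49 genes, 47 were tested, 14 higher and 19 lower, or 70.2% called, where 56.1% of all tested genes were. Called with a change of at least 1.5-fold were 7 of the 47 (14.9%), where 31.2% of all tested genes were, and 34 of 47 had groups that did not overlap, where 62.6% of all tested genes did. The 47 had at least 155 counts in every library. PSMA8 and PSMB11, known from testis and thymus, were not tested: each had 2 counts in 1 HNRNPD siRNA library and 0 in the other 5, where a count of 0 allows up to 0.07 to 0.0825 CPM.

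**Figure D3:**
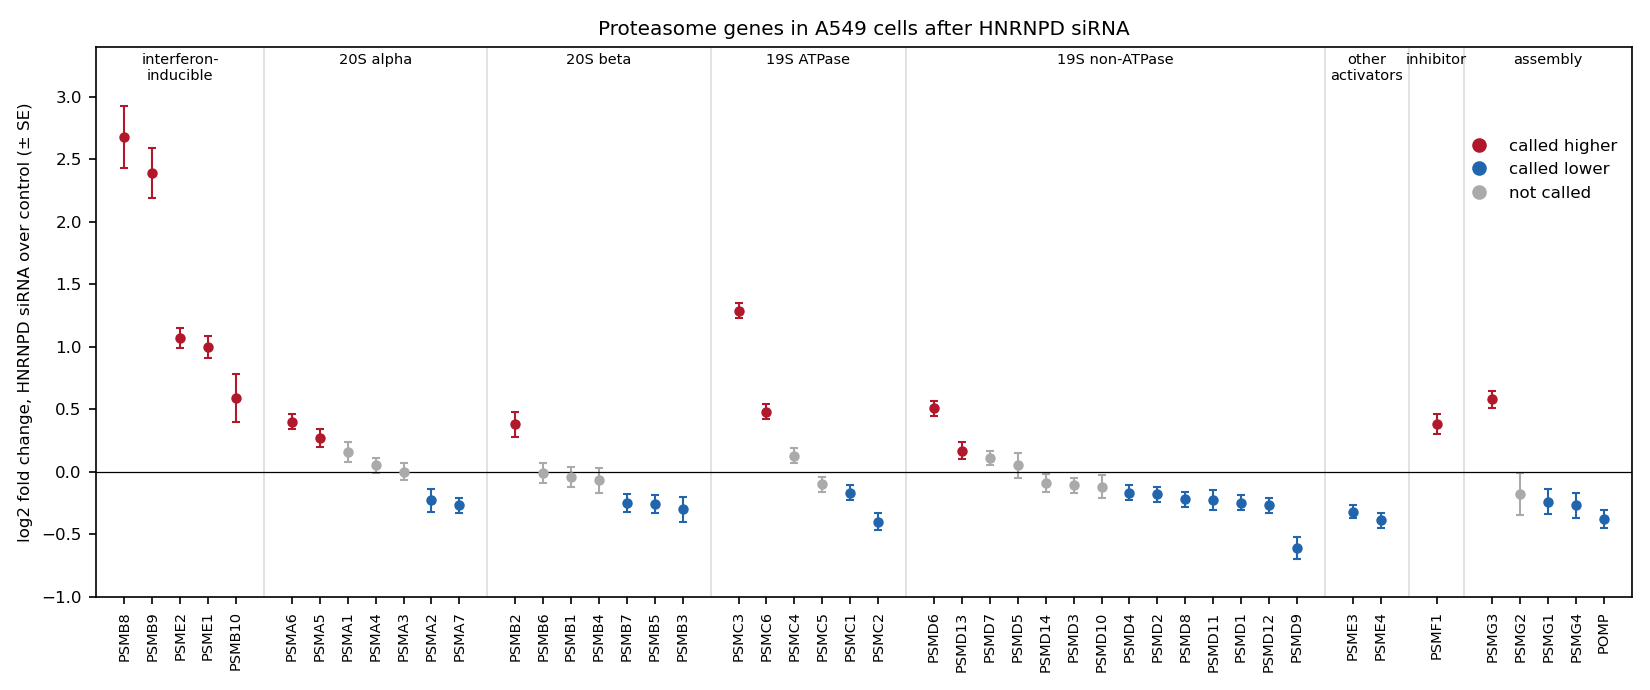
Log2 fold change (HNRNPD siRNA over control siRNA, ± SE) of the 47 tested proteasome genes, grouped by structural role and coloured by call. The interferon-inducible genes lie at 0.59 to 2.68, and PSMC3 stands apart from the other 19S ATPases at 1.29.

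The alpha subunits form the outer rings of the 20S and its gate. Of the 7 tested, 2 were called higher, 2 lower and 3 not called, with a median of 0.05. The called share of 57.1% was near the 56.1% of all tested genes. PSMA6 had 172, 161 and 174 CPM after HNRNPD siRNA, against 135, 122 and 127 CPM in the control (log2 fold change 0.40, SE 0.06, edgeR adjusted p = 1.76e-05). PSMA7 had 131, 135 and 124 CPM after HNRNPD siRNA, against 163, 148 and 159 CPM in the control (log2 fold change -0.27, SE 0.06, edgeR adjusted p = 9.64e-04). The groups of both genes lay apart. PSMA5 rose by a log2 fold change of 0.27 and PSMA2 fell by 0.23, and PSMA2 was no longer called without HNRNPD siRNA replicate 2 (edgeR adjusted p = 0.127), without control replicate 1 (0.19) or without control replicate 3 (0.0756). With a filter of 1 CPM in 3 libraries, PSMA2 was not called either (edgeR adjusted p = 0.052), and PSMA1 was called higher (0.0442). PSMA1, PSMA3 and PSMA4 had log2 fold changes of 0.16, 0.00 and 0.05.

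Of the 7 constitutive beta subunits, which form the inner rings, 1 was called higher, 3 lower and 3 not called, with a median of -0.07. Again 57.1% were called, near the 56.1% of all tested genes. Besides PSMB5 and PSMB7, the gene that fell was PSMB3, a structural subunit, with 9.45, 8.71 and 9.14 CPM after HNRNPD siRNA, against 11.9, 11.3 and 10.4 CPM in the control (log2 fold change -0.30, SE 0.10, edgeR adjusted p = 0.0124, and 0.0568 without control replicate 1). PSMB2, likewise without a catalytic site, had 12, 11.6 and 12.7 CPM after HNRNPD siRNA, against 10, 8.59 and 9.15 CPM in the control (log2 fold change 0.38, SE 0.10, edgeR adjusted p = 0.00252). PSMB3 and PSMB2 thus differed in opposite directions, each with groups that did not overlap. PSMB1 and PSMB4 were not called, at -0.04 and -0.07. These 14 alpha and beta subunits stand in equal numbers in a particle. Their mean levels per kilobase over all 6 libraries ran from 2.21 CPM per kilobase for PSMB2 to 81.9 for PSMA7, a 37.1-fold range. This range rests on the deposited lengths, 4843 bases for PSMB2 and 1750 for PSMA7. Whether the transcripts of these cells span all those bases was not tested.

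The 6 ATPases of the 19S base unfold the substrate and thread it into the barrel. Of these, 2 rose, 2 fell and 2 were not called, with a median of 0.02. That made 66.7% called, where 56.1% of all tested genes were. PSMC3 (chromosome 11, 47418769 to 47426473, minus strand) had 202, 206 and 195 CPM after HNRNPD siRNA, against 82.8, 81.8 and 82.7 CPM in the control. Its means were 201 ± 5.47 CPM after HNRNPD siRNA and 82.4 ± 0.562 CPM in the control (SD, n = 3 each). It rose 2.44-fold (log2 fold change 1.29, SE 0.06, edgeR adjusted p = 1.76e-12) and shares no exonic base with another gene. Unlike the inducible subunits, PSMC3 had HNRNPD siRNA replicate 3 as the lowest of its group, and its log2 fold change lay between 1.27 and 1.31 under every alternative that was run. PSMC6 rose as well, with 96.3, 91 and 84.3 CPM after HNRNPD siRNA, against 64.6, 64 and 65.6 CPM in the control (log2 fold change 0.48, SE 0.06, edgeR adjusted p = 2.71e-06). PSMC2 fell, with 56.7, 49.8 and 47.3 CPM after HNRNPD siRNA, against 70.1, 63.6 and 68.7 CPM in the control (log2 fold change -0.40, SE 0.07, edgeR adjusted p = 1.2e-04). PSMC1, with 0.758 of its exonic bases also in NRDE2, had a log2 fold change of -0.17 (edgeR adjusted p = 0.0289). It was no longer called without HNRNPD siRNA replicate 2 (0.0564) or without control replicate 1 (0.0791), 2 (0.059) or 3 (0.0639). Nor was PSMC1 called with library totals only (0.0594) or with a filter of 1 CPM in 3 libraries (0.0568). PSMC4 and PSMC5 were not called, at 0.13 and -0.10. PSMC4 was called higher without HNRNPD siRNA replicate 3 (edgeR adjusted p = 0.0498) and with the same filter (0.0333).

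The 14 non-ATPase genes of the 19S include the scaffold of the base, the ubiquitin receptors and the lid with its deubiquitinase. Here 2 rose, 7 fell and 5 were not called, with a median of -0.15. That made 64.3% called, where 56.1% of all tested genes were. PSMD6, a lid subunit, had 80, 78.3 and 77.8 CPM after HNRNPD siRNA, against 56, 53.2 and 57 CPM in the control (log2 fold change 0.51, SE 0.06, edgeR adjusted p = 8.41e-07). PSMD9, a chaperone of base assembly, had 10.5, 12.1 and 11.4 CPM after HNRNPD siRNA, against 18.5, 15.8 and 17.5 CPM in the control (log2 fold change -0.61, SE 0.09, edgeR adjusted p = 1.76e-05). Neither gene's groups overlapped. A fraction of 0.199 of the exonic bases of PSMD9 is shared with RP11-87C12.2 and WDR66, whose part in its counts was not tested. For PSMD6 the fraction is 0.078, shared with RP11-245J9.4 and PSMD6-AS2, and their part was not tested either. PSMD6-AS2 averaged 4.44 CPM after HNRNPD siRNA and 1.3 CPM in the control (log2 fold change 1.77, edgeR adjusted p = 5.38e-07). The scaffold subunits PSMD1 and PSMD2 fell by 0.25 and 0.18 on the log2 scale, the ubiquitin receptor PSMD4 fell by 0.17, and the lid subunits PSMD8, PSMD11 and PSMD12 fell by 0.22, 0.23 and 0.27. The lid subunit PSMD13 rose by 0.17 (edgeR adjusted p = 0.0452). It was no longer called without HNRNPD siRNA replicate 1 (0.19) or 2 (0.0806), or without control replicate 2 (0.241) or 3 (0.149). With every library kept, PSMD13 was not called with DESeq2 size factors (0.0547), with no filter on low counts (0.113) or by the DESeq2 Wald test (0.0835). PSMD4 was not called without control replicate 1 (0.073) or 2 (0.0528) or with library totals only (0.061). PSMD8 was not called without control replicate 1 (0.0519), nor PSMD11 without control replicate 1 (0.0801) or 3 (0.0615). Not called were the lid deubiquitinase PSMD14 at -0.09, the lid subunits PSMD3 and PSMD7 at -0.11 and 0.11, and the assembly chaperones PSMD5 and PSMD10 at 0.05 and -0.12. Of the 34 constitutive 20S and 19S genes together, 7 were called higher and 14 lower, or 61.8% called. Over all tested genes, 28.4% were called higher and 27.8% lower, or 56.1% called. Without control replicate 1, the count of lower genes among the 34 was 8, and 5170 of all 21123 genes tested in that fit were lower.

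Of the other regulators, PSME4 encodes the PA200 activator, known for acetylated histones as substrates. It had 60.3, 58.6 and 60.6 CPM after HNRNPD siRNA, against 76.9, 80.9 and 76.7 CPM in the control (log2 fold change -0.39, SE 0.06, edgeR adjusted p = 1.86e-05). PSMF1, which encodes the inhibitor PI31, had 52.1, 51.5 and 63.3 CPM after HNRNPD siRNA, against 45.2, 42.5 and 40.6 CPM in the control (log2 fold change 0.38, SE 0.08, edgeR adjusted p = 4.91e-04). PSMF1 was thus higher and both PSME3 and PSME4 lower, in groups that did not overlap.

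Assembly of the 20S needs the chaperones PSMG1 to PSMG4 and POMP, and POMP is known for speeding the maturation of immunoproteasomes in particular. POMP fell, with 39.5, 39.9 and 37.5 CPM after HNRNPD siRNA, against 55.2, 49 and 48.3 CPM in the control (log2 fold change -0.38, SE 0.07, edgeR adjusted p = 1.07e-04). PSMG3 rose, with 28.3, 29.3 and 31.4 CPM after HNRNPD siRNA, against 19.9, 20.2 and 19.4 CPM in the control (log2 fold change 0.58, SE 0.07, edgeR adjusted p = 1.81e-06). PSMG4, the partner of PSMG3, had a log2 fold change of -0.27 (edgeR adjusted p = 0.023, and 0.0876 without HNRNPD siRNA replicate 3 or 0.0756 without control replicate 3). PSMG1 had -0.24 (edgeR adjusted p = 0.0474, and 0.171 without HNRNPD siRNA replicate 3, 0.0951 without control replicate 1 and 0.147 without control replicate 3). With every library kept, PSMG1 was also not called with library totals only (edgeR adjusted p = 0.0731) or with counts divided by 2 (0.0501). The same held with a filter of 1 CPM in 3 libraries (0.0703) and by the DESeq2 Wald test (adjusted p = 0.0609). Its partner PSMG2 had -0.18 and was not called. PSMG4 holds the same 10 promoter letters as PSMB8, PSMB10, PSME1 and PSME2 and did not rise.

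**Figure D4:**
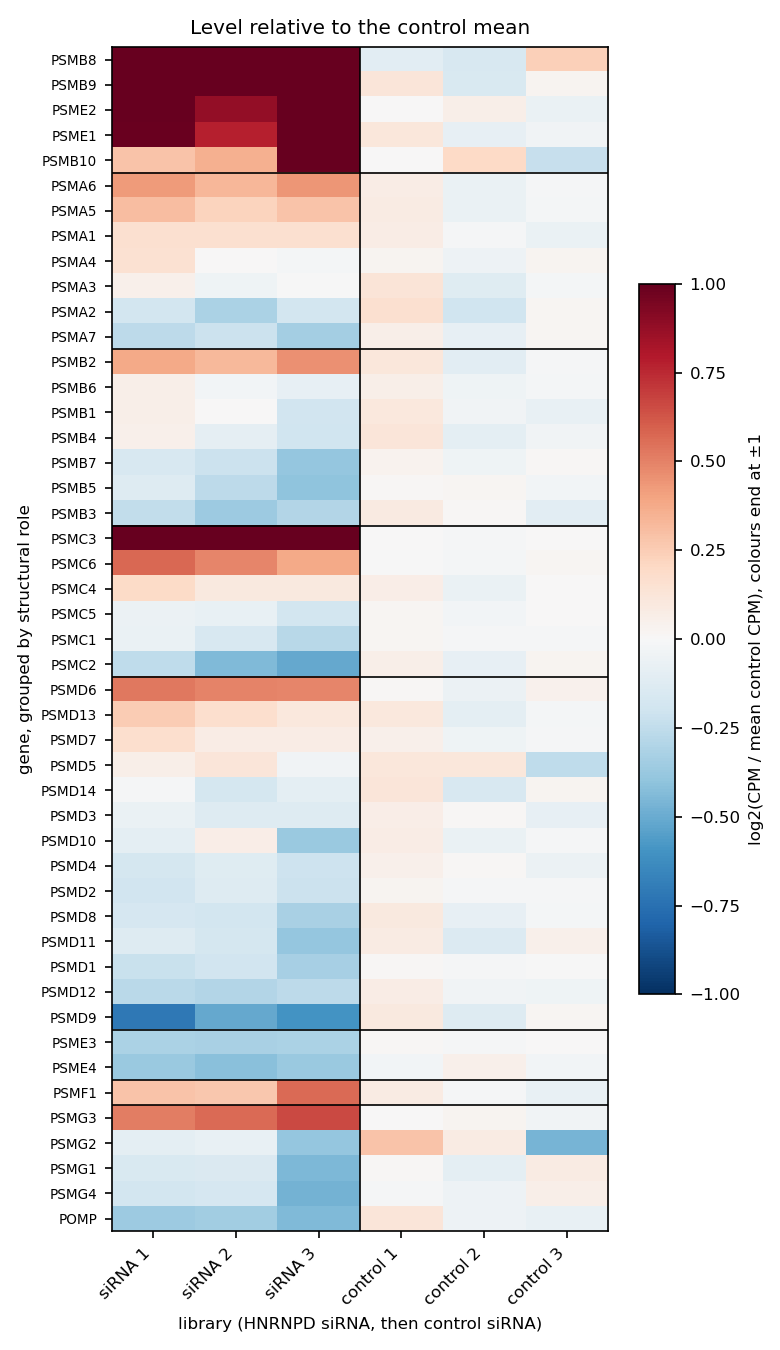
Level of each tested proteasome gene in each library as log2 of its CPM over the mean control CPM, with HNRNPD siRNA libraries left and control libraries right; rows are grouped by role and colours end at ±1. The interferon-inducible genes and PSMC3 are red in all 3 HNRNPD siRNA libraries, with PSMB10 darkest in replicate 3.

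Outside the proteasome itself, genes of the surrounding pathway were read from 6 lists. The list of interferon-inducible class I antigen processing had 16 of 17 genes called higher and 1 lower, and its median log2 fold change was 2.07. Over all tested genes, 28.4% were called higher and 27.8% lower. LAP3, a cytosolic aminopeptidase, had 161, 148 and 198 CPM after HNRNPD siRNA, against 22.3, 20.2 and 19.5 CPM in the control (log2 fold change 3.03, SE 0.11, edgeR adjusted p = 4.32e-10). TAPBP, which encodes tapasin, rose by a log2 fold change of 0.92 (edgeR adjusted p = 1.47e-07). The list's 1 lower gene was UBD, a ubiquitin-like modifier, which averaged 0.491 CPM after HNRNPD siRNA and 1.42 CPM in the control and has 0.664 of its exonic bases in common with GABBR1. PSMB8, PSMB9, TAP1 and LAP3 thus lay within 2.39 to 3.03, while PSMB10, PSME1 and PSME2 lay below the median of this list.

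Of 12 genes that control transcription of the constitutive subunits, 4 were called higher and 4 lower, with a median of 0.08, where 28.4% of all tested genes were higher and 27.8% lower. NFE2L1, the factor known for raising proteasome genes when proteasome activity is short, had 665, 644 and 677 CPM after HNRNPD siRNA, against 315, 342 and 327 CPM in the control (log2 fold change 1.01, SE 0.06, edgeR adjusted p = 6.56e-11). NGLY1, whose enzyme edits the NFE2L1 protein into its active form, fell by 0.66 on the log2 scale (17 CPM after HNRNPD siRNA and 26.8 CPM in the control), and the NFE2L1-processing protease gene DDI2 was not called (0.04). The small Maf partner MAFK rose by a log2 fold change of 1.11 (edgeR adjusted p = 1.05e-10) and NFE2L2, which encodes NRF2, fell by 0.72 (edgeR adjusted p = 1.81e-08). The NRF2 target genes AKR1B10, AKR1C1 and NQO1, high in A549, fell by 0.96, 0.89 and 0.93 on the log2 scale. The median of the 34 constitutive 20S and 19S genes was -0.10.

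The list of shuttle and extraction factors had 1 of 12 genes higher and 8 lower, with a median of -0.26. Called in either direction were 75% of the list and 56.1% of all tested genes (28.4% higher, 27.8% lower). RAD23B, which carries ubiquitinated proteins to the 19S, had 37.4, 37.3 and 35 CPM after HNRNPD siRNA, against 101, 93.4 and 95 CPM in the control (log2 fold change -1.40, SE 0.06, edgeR adjusted p = 2.2e-12), and its groups lay far apart. NPLOC4, a VCP cofactor, was called lower (edgeR adjusted p = 0.0207) but not without HNRNPD siRNA replicate 1 (0.0548) or 2 (0.053) or without control replicate 2 (0.0587). With library totals only, NPLOC4 was not called either (0.0654). The ubiquilins UBQLN1, UBQLN2 and UBQLN4 fell by 0.71, 0.97 and 0.80 on the log2 scale.

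Of 12 other subunits and bound factors, 2 were higher and 8 lower, with a median of -0.25. This was 83.3% called, where 56.1% of all tested genes were (28.4% higher, 27.8% lower). UBLCP1, a phosphatase of the nuclear proteasome, rose by a log2 fold change of 0.62 (edgeR adjusted p = 2.73e-07), while ZFAND5, an activator, fell by 0.53 (8.24e-07) and USP14, a bound deubiquitinase, fell by 0.38 (8.23e-05). The call of ADRM1, a ubiquitin receptor, was lost without control replicate 1 (edgeR adjusted p = 0.0682). ECPAS (called higher) lost its call when any library except HNRNPD siRNA replicate 3 was left out (up to 0.223), and ZFAND2A (called lower) without HNRNPD siRNA replicate 1 or 2 or control replicate 2 or 3 (up to 0.161). ECPAS and ZFAND2A were also not called with no filter on low counts (0.171 and 0.0504) or by the DESeq2 Wald test (0.0581 and 0.0677). Of the 6 ubiquitin and E1 genes, 2 were higher and 3 lower (83.3% called, against 56.1% of all tested genes), with a median of -0.18. Here the ubiquitin genes RPS27A and UBB fell by 0.36 and 0.29 on the log2 scale, and UBA6, an E1 enzyme, rose by 0.38. Of 10 cytosolic peptidases, which trim or destroy the peptides that proteasomes release, 2 were higher and 4 lower, with a median of 0.00. Their called share of 60% was near the 56.1% of all tested genes. Beside LAP3, NPEPPS fell by 0.43 on the log2 scale (edgeR adjusted p = 8.97e-06) and NLN by 0.49 (edgeR adjusted p = 7.12e-05). TPP2 lost its call of lower without HNRNPD siRNA replicate 2 (0.056) or control replicate 2 (0.0617).

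**Figure D5:**
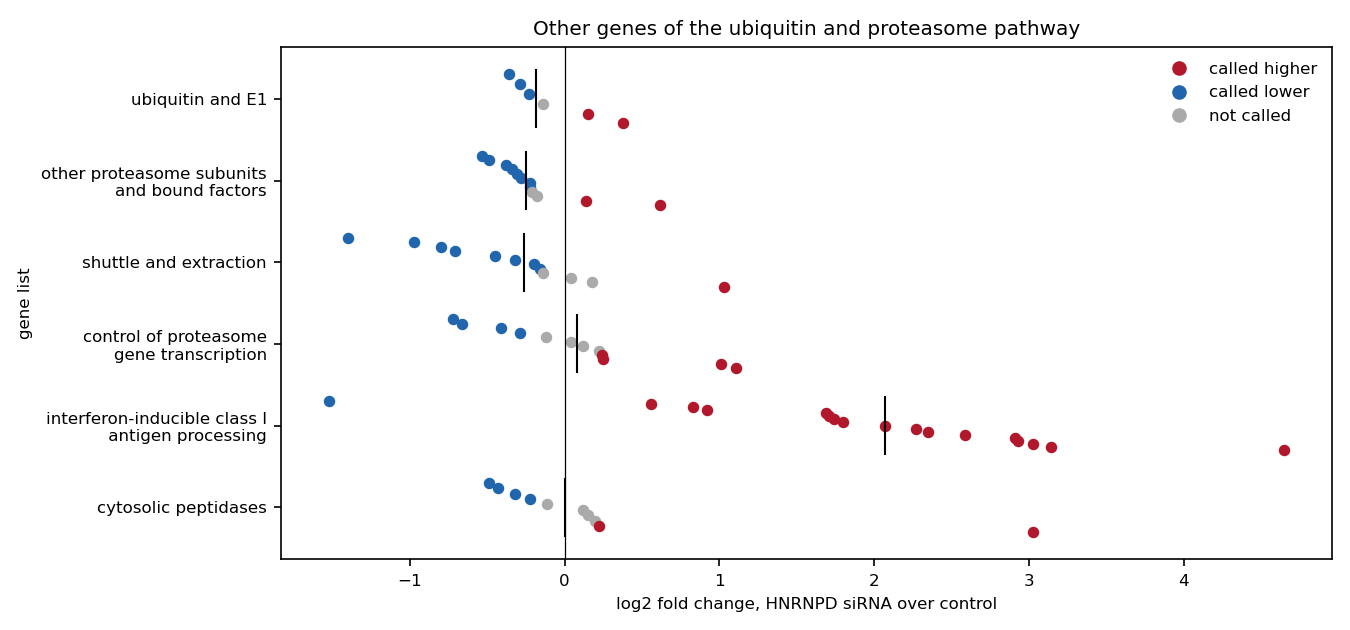
Log2 fold change (HNRNPD siRNA over control siRNA) of the genes of 6 pathway lists, coloured by call, with a black bar at each list's median. The class I list has its median at 2.07, and the medians of the other 5 lists lie between -0.26 and 0.08.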

How the data were processed

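RNA was extracted with Trizol and libraries were made with a TruSeq RNA kit, per the labels' protocols. The values used are whole-number counts per gene in the deposited table, which the authors made from the reads. Per the submitters' processing notes, the tools included Bowtie 0.12.2 and the builds were GRCh38 and mm8, without a role for either. The sources used here do not give the counting program, its annotation or its strand option. Even numbers made up 66.2% to 69.5% of a library's counts from 1 to 20 but 50.6% to 51.7% of those over 200, so both mates of a pair may have been counted. Total counts per library ran from 37151094 to 43005090. The floor of 3 counts (0.07 to 0.0825 CPM) covers counting error only.

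Groups were compared with edgeR 4.0.16 (R 4.3.3; robust quasi-likelihood test, TMM, filterByExpr, group as the only term), with Benjamini-Hochberg adjustment over 20465 genes. The SE is the size of the log2 fold change over the square root of its F. CPM use TMM-scaled totals, and levels per kilobase use the deposited gene length, the union of exonic bases. Gene positions were matched to GENCODE 29, and newer names (SEM1 for SHFM1, ECPAS for KIAA0368, UFD1 for UFD1L) to RefSeq. The table holds 31 pseudogene rows of these genes; PSMC1P1 reached 390 counts in a library, the others at most 16, and how reads common to such copies were assigned is unknown. DESeq2 1.42.0, limma 3.58.1 (voom), other scalings and filters, a replicate term, counts divided by 2 and leaving out each library were alternatives. The pipeline was tested on simulated data. Named in full were the inducible subunits, their counterparts, POMP, PSMF1, and per structural group the called gene with the largest rise and the largest fall (mean of at least 5 CPM); per pathway list, the 3 smallest p, except that some genes of these lists are not reported here. PSMC6, PSMC1, the ubiquilin values and all other names were added after their values were seen. The members and lists were chosen with earlier results of these data known. No 2 replicates agreed within sampling noise (chi-square per degree of freedom 6.63 to 27.67).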

Additional observations from a re-analysis of the deposited data

How the results depend on the processing

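Of 705 values (47 tested proteasome genes under 15 alternatives), 665 kept their call, 37 were no longer called, 3 became called and 0 changed sign while called, and 35 of the 47 genes kept their call throughout. Proteasome genes called lower numbered 12 (without control replicate 1) to 19 when a library was left out, and constitutive 20S and 19S genes called lower 8 (without control replicate 1) to 14. Over all tested genes, 5170 of 21123 were lower without control replicate 1, against 5687 of 20465 in the main fit. Each fit with a library left out had fewer libraries, and no further cause was tested. Proteasome genes called higher numbered 12 to 16 over all alternatives. The 12 came without control replicate 3, where 5125 of 21139 tested genes were higher. The 16 came with genes kept at 1 CPM or more in 3 libraries, where 5244 of 16248 were higher. With the replicate number as a block, 14 were higher and 18 lower, and PSMG1 was no longer called (adjusted p = 0.0502). Of all 20465 tested genes, 5792 were higher and 5737 lower with that block. The numbers are not read as pairing the samples: deviations of same-numbered libraries correlated at 0.026, 0.022 and 0.014, all under 0.1, and HNRNPD siRNA replicate 3 correlated best with control replicate 2 (0.016). Gene length cancels from the differences of the pair ratios between groups, though not from the shares themselves, and adding 0.5 counts gave 2.37 for PSMB9 over PSMB6 and the same rounded difference for the other 4. Depth limits PSMA8 and PSMB11, which were near the floor of 3 counts.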

Other observations

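The promoter letters were also read over all genes. Without the proteasome genes, 463 tested genes held the core of the interferon-stimulated response element in a window, of which 217 (46.9%) were called higher and 99 (21.4%) lower (median log2 fold change 0.23). Among all 11361 tested genes with a window, 29.7% were higher and 32.4% lower, with a median of -0.02. Of 20 tested genes outside the proteasome with GAAAGCGAAA, 11 (55%) were higher and 2 (10%) lower, with a median of 0.62. Among them PARP14, an ADP-ribosyltransferase, had a log2 fold change of 3.44, MYD88, an adaptor of innate immune receptors, 2.02, and FAM111A, a protease that restricts viruses, 1.57, while TNFRSF1B had -1.28 and GRWD1 -0.30. These genes were named after their values were seen, and the 10 letters had been read from the windows of the inducible subunits. Of the 11 higher genes, 4 are neighbours of those subunits: RNF31, PSMB8-AS1, TAP1 and TAP2. RNF31 and PSMB8-AS1 overlap PSME2 and PSMB8 on the other strand, so their windows may hold the same match and not a separate one. For TGACNNNGC, 28.7% of 2178 tested genes were higher and 33.8% lower.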
